A study of Arabidopsis thaliana with 6 samples.

Results

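The genes described here are APL3 and 5 genes taken as repressed by sugar, AKINBETA1, AT3G15450, AT4G27450, AT5G19120 and AT1G19450. Together they are 6 of the 13355 Arabidopsis thaliana genes that had a probe set paired with a single gene on the Affymetrix ATH1 array, where each probe set combines several short probes against one transcript. They were chosen by name, with their differences between the genotypes already known, because one gene known to be induced by sugar and several taken as repressed by it could be set side by side. Their own differences are therefore given as a description, with no test.

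The study compared 2 genotypes. The 35S::KLU line carries KLU, the gene of the cytochrome P450 monooxygenase CYP78A5 that promotes organ growth, behind the 35S promoter of a plant virus, which is active in nearly all tissues. It was set against the wild type (WT), and both were of the Col-0 accession with no treatment. Shoots of seedlings at stage 1.03, grown on half-strength MS medium at 21 °C under days of 16 h light and 8 h dark, gave 3 arrays per genotype, labelled as biological replicates. Per the series' design text each sample pooled 5 seedlings, 1 µg of RNA was hybridised, and the samples came from 3 independent experiments with the 2 genotypes on shared plates. How many independent lines carried the transgene was not given in the sources used here.

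Plants store part of the carbon they fix as starch in the plastid by day and break it down at night. ADP-glucose pyrophosphorylase makes ADP-glucose, the building block of starch, and consists of small catalytic and large regulatory subunits. When sugar runs short, the kinase SnRK1 becomes active, and a set of transcripts that sugar holds down, many of them also high in darkness, accumulates. A gene raised by sugar and genes lowered by sugar thus give opposite readings of carbon status. In whole shoots, fewer cells of a type and less RNA per cell cannot be told apart.

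Array values were log2 units after RMA, the normalization the submitters named, and a difference is 35S::KLU minus WT on that scale. Between arrays, values over all probe sets correlated at 0.9952 to 0.9975 within genotypes and at 0.9895 to 0.9931 between them. KLU itself had no probe set paired with it, so the labels were not checked against the transgene. Of 6 leaf markers 3 were measured. The light-harvesting genes LHCB4.1 and LHCB4.2 averaged 13.63 and 13.65 in 35S::KLU shoots, against 13.66 and 13.52 in WT shoots. The dimmer LHCB4.3 averaged 8.39 ± 0.41 in 35S::KLU and 8.17 ± 0.29 in WT (SD, n = 3 each), with overlapping groups. The root list was also measured for 3 of 6 genes, and the mean of those 3 per array spanned 6.46 to 6.57 in 35S::KLU and 6.39 to 6.50 in WT. Its brightest gene PYK10, a beta-glucosidase gene of root endoplasmic reticulum bodies, averaged 10.68 ± 0.15 in 35S::KLU and 10.25 ± 0.26 in WT (SD, n = 3 each), a difference of 0.43 that did not pass (limma adjusted p = 0.078). The root hair expansin genes EXPA7 and EXPA18 averaged 4.05 and 4.80 in 35S::KLU, against 4.22 and 4.87 in WT. EXPA7 thus lay near the arrays' lower quartile (4.06 to 4.11), and RMA understates differences at such low values. Whether root RNA had a part in the results below was not tested.

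APL3, reported by probe set 252888_at, encodes a large subunit of ADP-glucose pyrophosphorylase whose transcript is raised by sugar. It read 8.29, 8.29 and 8.06 in the 3 35S::KLU arrays, against 6.79, 6.09 and 5.87 in the 3 WT arrays. The groups did not overlap, and the lowest 35S::KLU array stood 1.27 log2 units above the highest WT array. The WT arrays were the more scattered, with an SD of 0.48, against 0.13 in 35S::KLU. The difference was 1.96 (SE 0.20), or 3.90-fold, the rank 10 rise among the 13355 genes.

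AKINBETA1, probe set 246028_at, encodes a beta subunit of SnRK1, the part that holds the complex together and helps place it in the cell. Its values were 7.08, 7.52 and 7.53 in 35S::KLU, against 8.06, 7.98 and 8.08 in WT. The 3 WT arrays lay within 0.10 of each other, while 35S::KLU replicate 1 lay well under the other two arrays of its genotype. At -0.66 (SE 0.12), which is 1.58-fold lower in 35S::KLU, its difference was the smallest of the 6 in size, and the fall ranked 102.

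AT3G15450 and AT4G27450 carry no gene name in the annotation used. In the lists drawn up for this comparison they stand among genes induced by darkness or sugar starvation, and both also stand in a family of proteins first described as aluminium-induced. AT3G15450, probe set 258402_at, read 7.96, 8.49 and 8.85 in 35S::KLU and 9.23, 9.41 and 9.91 in WT. Its groups were the closest of the 6, with 0.38 log2 units between the highest 35S::KLU array and the lowest WT array, and its difference was -1.09 (SE 0.22), or 2.12-fold lower.

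AT4G27450, probe set 253874_at, read 6.51, 7.18 and 7.48 in 35S::KLU and 8.30, 8.29 and 8.56 in WT. The spread was larger among the 35S::KLU arrays (SD 0.50) than among the WT arrays (SD 0.15), and the groups stood 0.81 apart. Its difference of -1.33 (SE 0.20) made it 2.51-fold lower in 35S::KLU, the rank 10 fall.

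AT5G19120 is likewise unnamed in the annotation and was taken as sugar-repressed by the working description of the set. Its probe set 249923_at read 6.78, 7.01 and 7.28 in 35S::KLU, against 8.45, 8.77 and 8.83 in WT. No array of one genotype came within 1.18 of the other genotype. With a difference of -1.66 (SE 0.14), or 3.16-fold lower, it ranked 5 among the falls and was the lowest of the 5 relative to WT.

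AT1G19450 stands in the list of ERD6-like genes, a family of sugar transporters, many of them at the vacuole membrane, named after the dehydration-induced gene ERD6. AT1G19450 too was taken as sugar-repressed by the working description of the set, and it does not stand in the list of genes induced by darkness or sugar starvation. Probe set 260676_at read 9.03, 9.03 and 8.75 in 35S::KLU, against 10.50, 10.36 and 10.24 in WT. Both groups were tight, with SDs of 0.16 in 35S::KLU and 0.13 in WT, and the gap between them was 1.21. The difference was -1.43 (SE 0.10), or 2.70-fold lower, and it ranked 7 among the falls.

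The sugar-induced gene and the genes taken as sugar-repressed thus stood on opposite sides of WT. APL3 was higher in 35S::KLU, and all 5 others were lower, with a median difference of -1.33. In none of the 6 did the 3 values of one genotype overlap those of the other. Over all 13355 genes 10.2% were free of overlap with 35S::KLU higher and 13.3% with 35S::KLU lower, but since this contrast chose the 6, nothing is read from their count. Averaged over the 5 genes taken as repressed, each set to its own WT mean, the 35S::KLU arrays stood at -1.53, -1.15 and -1.02, against -0.09, -0.04 and 0.13 in the WT arrays. APL3 treated in the same way stood at 2.04, 2.04 and 1.81 in 35S::KLU, against 0.54, -0.16 and -0.38 in WT.

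**Figure D1:**
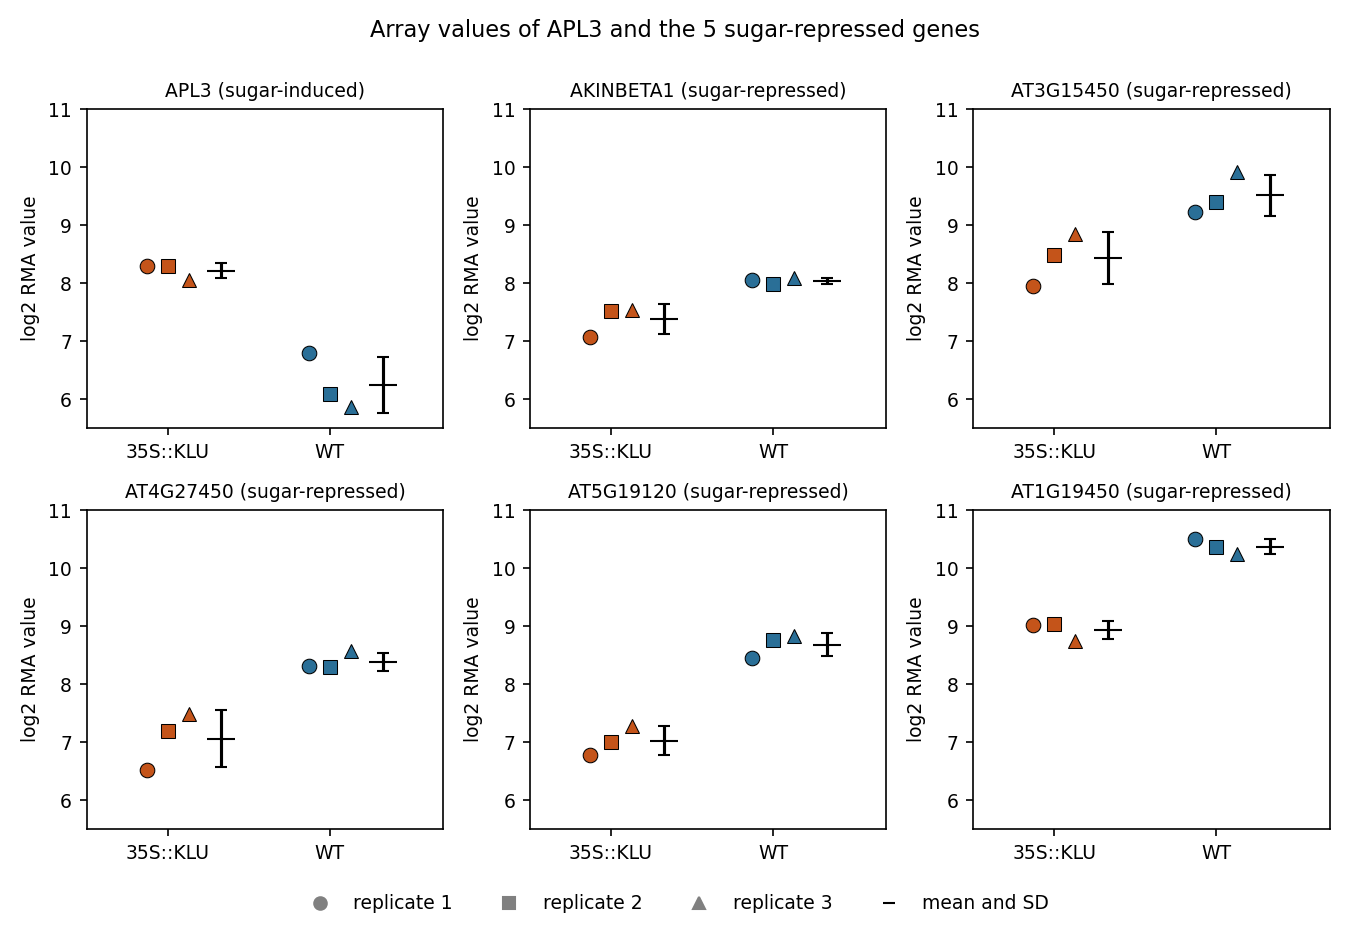
Log2 RMA values (y axis) of the 6 genes in the 3 35S::KLU arrays (left in each panel) and the 3 WT arrays (right), with the mean and SD beside the points. APL3 lies between 8.06 and 8.29 in 35S::KLU and between 5.87 and 6.79 in WT, and each of the other 5 genes lies lower in 35S::KLU than in every WT array.

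How the genes varied among arrays of one genotype was not used to choose them. Within 35S::KLU, 4 of the 5 genes taken as repressed were lowest in replicate 1. They stood at -0.30, -0.47, -0.55 and -0.24 from the genotype mean for AKINBETA1, AT3G15450, AT4G27450 and AT5G19120. The same 4 were highest in replicate 3, at 0.16, 0.42, 0.42 and 0.25, the array in which APL3 was lowest, at -0.15. AT1G19450 did not share this order. It stood at 0.09, 0.09 and -0.18 in 35S::KLU replicates 1, 2 and 3, close to the 0.07, 0.08 and -0.15 of APL3.

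Among the WT arrays, APL3 was highest in replicate 1, at 0.54 from its mean, and lowest in replicate 3, at -0.38. AT3G15450 and AT5G19120 were lowest in replicate 1, at -0.29 and -0.23, and both were highest in replicate 3, at 0.40 and 0.15. AT4G27450 was highest in replicate 3 too, at 0.18, and AKINBETA1 stayed within 0.06 of its mean in each WT array. AT1G19450 again followed the order of APL3, with 0.13, -0.004 and -0.13. Inside both genotypes, then, AT3G15450 and AT5G19120 were lowest in replicate 1 and highest in replicate 3, where APL3 was lowest, while AT1G19450 was lowest in the same arrays as APL3. With 3 arrays per genotype these orders are a description, and no correlation was computed.

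**Figure D2:**
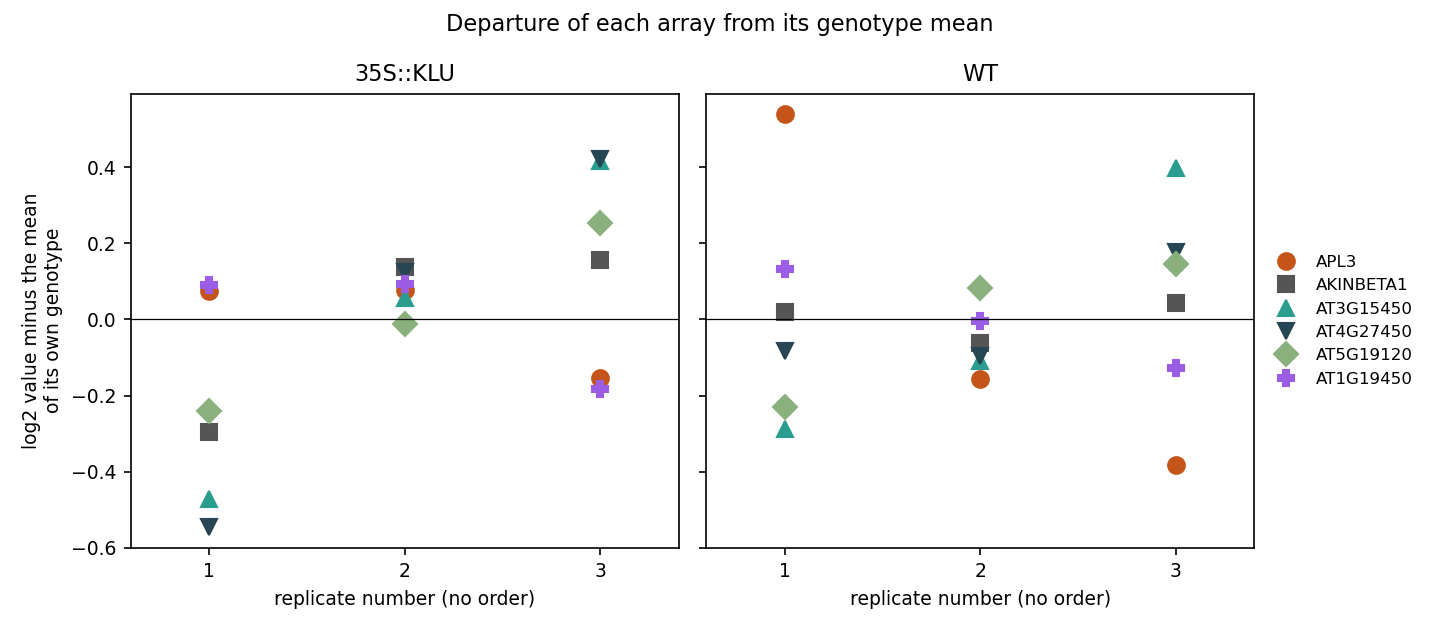
Departure of each array from the mean of its own genotype (y axis, log2) for the 6 genes, by replicate number (x axis, which has no order), with 35S::KLU on the left and WT on the right. In replicate 3 of both genotypes AKINBETA1, AT3G15450, AT4G27450 and AT5G19120 lie above 0 while APL3 and AT1G19450 lie below it.

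The rest of the pathway was taken from 10 lists of starch and sugar genes, drawn up by locus with earlier results of these data known. They named 213 genes, of which 51 had a single-gene probe set, and 46 remained after leaving out the members. Tested by limma at an adjusted p of 0.05, with the Benjamini-Hochberg correction taken over the whole set of 22746 probe sets, 8 of the 46 rose, 3 fell and 35 did not pass. Over all 13355 genes 6.85% passed, 3.51% higher and 3.34% lower in 35S::KLU. At an unadjusted p under 0.05 the shares over all genes were 8.45% higher and 10.7% lower, the background for the unadjusted counts given below. The 46 genes had a median difference of 0.13, against -0.02 over all genes. A gene is called measured in this text if the annotation pairs it with a single-gene probe set. Most list genes had no listed probe set, and 8730 probe sets had no gene listed, so the counts do not speak for whole pathways.

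In the starch synthesis list 4 of 19 other genes were measured and 0 passed by limma, although 2 had an unadjusted p under 0.05, both higher. APL4, a further large subunit of ADP-glucose pyrophosphorylase and also raised by sugar, read 6.74, 7.27 and 6.66 in 35S::KLU, against 6.34, 6.29 and 5.40 in WT. All 3 35S::KLU arrays were above all 3 WT arrays, with a difference of 0.88 (SE 0.24, limma adjusted p = 0.058). It passed under 6 of 13 other settings, among them leaving out WT replicate 1 (adjusted p = 0.042), and over all 13 its adjusted p lay between 0.020 and 0.18. SBE2.2, which encodes a starch branching enzyme, differed by 0.34 (95% interval 0.03 to 0.65) and did not pass (adjusted p = 0.19). AT5G65685 differed by -0.05 (95% interval -0.20 to 0.11). The list's median difference was 0.20.

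Of 3 measured genes of starch breakdown, the 2 that encode plastid enzymes rose. PWD, the phosphoglucan water dikinase that phosphorylates starch and so opens the granule to attack, read 8.70, 8.61 and 8.71 in 35S::KLU, against 8.14, 8.07 and 8.12 in WT. Its groups were far apart relative to their spread, and it rose 1.48-fold (adjusted p = 0.0010), a call kept under all 13 other settings tried. DPE1, the plastid disproportionating enzyme that recycles short maltooligosaccharides, read 8.48, 8.53 and 8.59 in 35S::KLU and 8.37, 8.07 and 8.06 in WT, and rose 1.29-fold (adjusted p = 0.042). DPE1 no longer passed when any one array other than WT replicate 1 was left out (adjusted p from 0.070 to 0.17), nor with the replicate number as a block (adjusted p = 0.090). The alpha-amylase gene AMY1, the last of the 3 measured in a list of 24, averaged 3.71 in 35S::KLU and 3.68 in WT, below the arrays' lower quartile (4.06 to 4.11), where RMA understates differences. So 2 of 3 rose and 0 fell by limma, and 0 were lower at an unadjusted p under 0.05.

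In the sugar-induced list 4 of 12 genes were measured. Of the 3 besides APL3, which was not tested, DFR and UF3GT rose and APL4 did not pass, with the values given above. DFR, the dihydroflavonol reductase of anthocyanin synthesis, read 10.78, 10.34 and 9.92 in 35S::KLU and 8.44, 7.97 and 7.80 in WT, a 4.85-fold rise (adjusted p = 2.4e-04). UF3GT, an anthocyanin glycosyltransferase gene, rose 4.52-fold (adjusted p = 2.0e-04). Both were among the largest rises already known when the list was drawn up, so their place in it adds no independent evidence of its direction. Within each genotype both were highest in replicate 1 and lowest in replicate 3.

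AKINBETA1 was set beside the other SnRK1 beta subunits and the bZIP factors that act with the kinase. The list had 5 of 19 genes measured, and of the 4 besides AKINBETA1 0 passed by limma, with 1 higher at an unadjusted p under 0.05. AT4G16360, the beta subunit gene KINbeta2, averaged 8.22 ± 0.14 in 35S::KLU and 8.11 ± 0.06 in WT (SD, n = 3 each), a difference of 0.11 with a 95% interval of -0.08 to 0.30. AT2G28060, or KINbeta3, differed by -0.12 (95% interval -0.32 to 0.08). The 3 subunits were not tested against each other, because AKINBETA1 was chosen on this contrast. The bZIP transcription factor gene bZIP44 differed by 0.32 without overlap (adjusted p = 0.084), and passed in 2 of 12 other settings, leaving out 35S::KLU replicate 2 (adjusted p = 0.028) or weighting the arrays (adjusted p = 0.042). bZIP53 differed by -0.09 (adjusted p = 0.55). The list's median difference was 0.01.

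The list of genes induced by darkness or sugar starvation held 33 genes, of which 6 were measured, and 3 of these were AKINBETA1, AT3G15450 and AT4G27450. The other 3 were all genes of leucine breakdown in mitochondria. MCCA and MCCB, the 2 subunits of methylcrotonyl-CoA carboxylase, differed by 0.15 (95% interval -0.02 to 0.32) and 0.11 (-0.10 to 0.32). IVD, the isovaleryl-CoA dehydrogenase gene, read 7.62, 7.75 and 7.69 in 35S::KLU and 7.68, 7.49 and 7.36 in WT, with overlapping groups and a difference of 0.18 (-0.02 to 0.38). None of the 3 passed by limma, and all 3 intervals included 0. Of the 3, 0 had an unadjusted p under 0.05, and their median difference was 0.15.

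The aluminium-induced protein family was measured for all 5 of its listed genes. The 3 besides AT3G15450 and AT4G27450 did not pass by limma, with 1 higher at an unadjusted p under 0.05. AILP1, the member with a name in the annotation, read 11.82, 12.13 and 12.05 in 35S::KLU, against 12.03, 12.00 and 11.80 in WT. Its groups overlapped, with a difference of 0.05 (95% interval -0.17 to 0.28). AT5G43830 differed by -0.05 (-0.28 to 0.18) and AT3G22850 by 0.15 (0.0002 to 0.31, adjusted p = 0.23). AT3G15450 and AT4G27450, the 2 with large negative differences, also stand in the starvation list. Since this contrast chose both, and the lists were drawn up with earlier results known, nothing is read from that overlap. For the same reason they were not tested against the other 3.

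Of the 19 ERD6-like transporter genes 10 were measured. Of the 9 besides AT1G19450, 1 rose, 2 fell and 6 did not pass, with a median difference of 0.06. Among the 6, AT3G05150 and AT3G20460 averaged 3.92 and 3.69 over all arrays. Both lay below the arrays' lower quartile, where RMA understates differences. SFP2 read 7.73, 7.76 and 7.71 in 35S::KLU and 8.37, 8.23 and 8.40 in WT. It fell 1.51-fold, with groups well clear of each other (adjusted p = 0.0011). Its neighbour SFP1 was 1.29-fold lower (8.87 ± 0.05 in 35S::KLU and 9.24 ± 0.15 in WT, SD, n = 3 each, adjusted p = 0.028). SFP1 no longer passed when any one array other than WT replicate 1 was left out (adjusted p from 0.059 to 0.094). AT4G04750 went the other way, at 8.18, 7.86 and 7.79 in 35S::KLU and 7.16, 7.11 and 7.04 in WT, a 1.79-fold rise (adjusted p = 0.0010). The family therefore held calls in both directions. Whether probes of SFP1 and SFP2, or of AT4G04750 and its neighbour AT4G04760 (difference 0.06), bind each other's transcripts was not tested. Nor was it tested whether the probe set of AT1G19450 binds transcripts of other genes in this list.

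Other transporters of hexoses and sucrose were measured for 8 of 36 genes. The sucrose transporter genes SUC1 to SUC9 of this list had no listed probe set. By limma 3 of the 8 rose and 0 fell, and 6 were higher and 0 lower at an unadjusted p under 0.05, with a median difference of 0.27. Of the 6, AT3G19940 averaged 4.24 in 35S::KLU and 4.04 in WT, near the arrays' lower quartile. TMT2, which loads sugars into the vacuole, rose 1.29-fold (8.02 ± 0.12 in 35S::KLU and 7.65 ± 0.06 in WT, SD, n = 3 each, adjusted p = 0.020). Its call was lost without 35S::KLU replicate 1, 35S::KLU replicate 3, WT replicate 2 or WT replicate 3, with adjusted p between 0.063 and 0.091. AT5G61520 read 7.43, 7.51 and 7.78 in 35S::KLU and 6.82, 6.81 and 6.72 in WT, and rose 1.73-fold (adjusted p = 0.0011). AT1G34580 rose 1.39-fold (adjusted p = 0.015), a call lost without 35S::KLU replicate 2 (adjusted p = 0.058). AT5G17010 differed by 0.30 and just missed the threshold (adjusted p = 0.052), passing under 7 of 13 other settings with adjusted p over all 13 between 0.032 and 0.15.

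Sucrose and hexose metabolism was measured for 10 of 38 genes, of which 1 fell, 0 rose by limma and 9 did not pass, while 2 were higher and 1 lower at an unadjusted p under 0.05. The median difference was 0.01. Among the genes that did not pass, cwINV6, AT4G10260 and AT1G06020 averaged 3.85, 3.92 and 3.83 over all arrays. They lay below the arrays' lower quartile, where RMA understates differences. SPS4F, a sucrose phosphate synthase gene, read 8.89, 8.27 and 8.37 in 35S::KLU, against 9.32, 9.51 and 9.13 in WT. It fell 1.75-fold (adjusted p = 0.013), and the call was lost without 35S::KLU replicate 3 (adjusted p = 0.052) or WT replicate 2 (adjusted p = 0.067). AT2G31390 and AT1G66430 stood higher without overlap, at differences of 0.28 and 0.21, and did not pass (adjusted p = 0.11 and 0.17). AT2G31390 passed in 2 of 13 other settings, leaving out WT replicate 1 (adjusted p = 0.016) or weighting the arrays (adjusted p = 0.022), and AT1G66430 passed in 1, weighting the arrays (adjusted p = 0.038). Of 22 genes of trehalose phosphate metabolism 0 had a listed probe set.

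**Figure D3:**
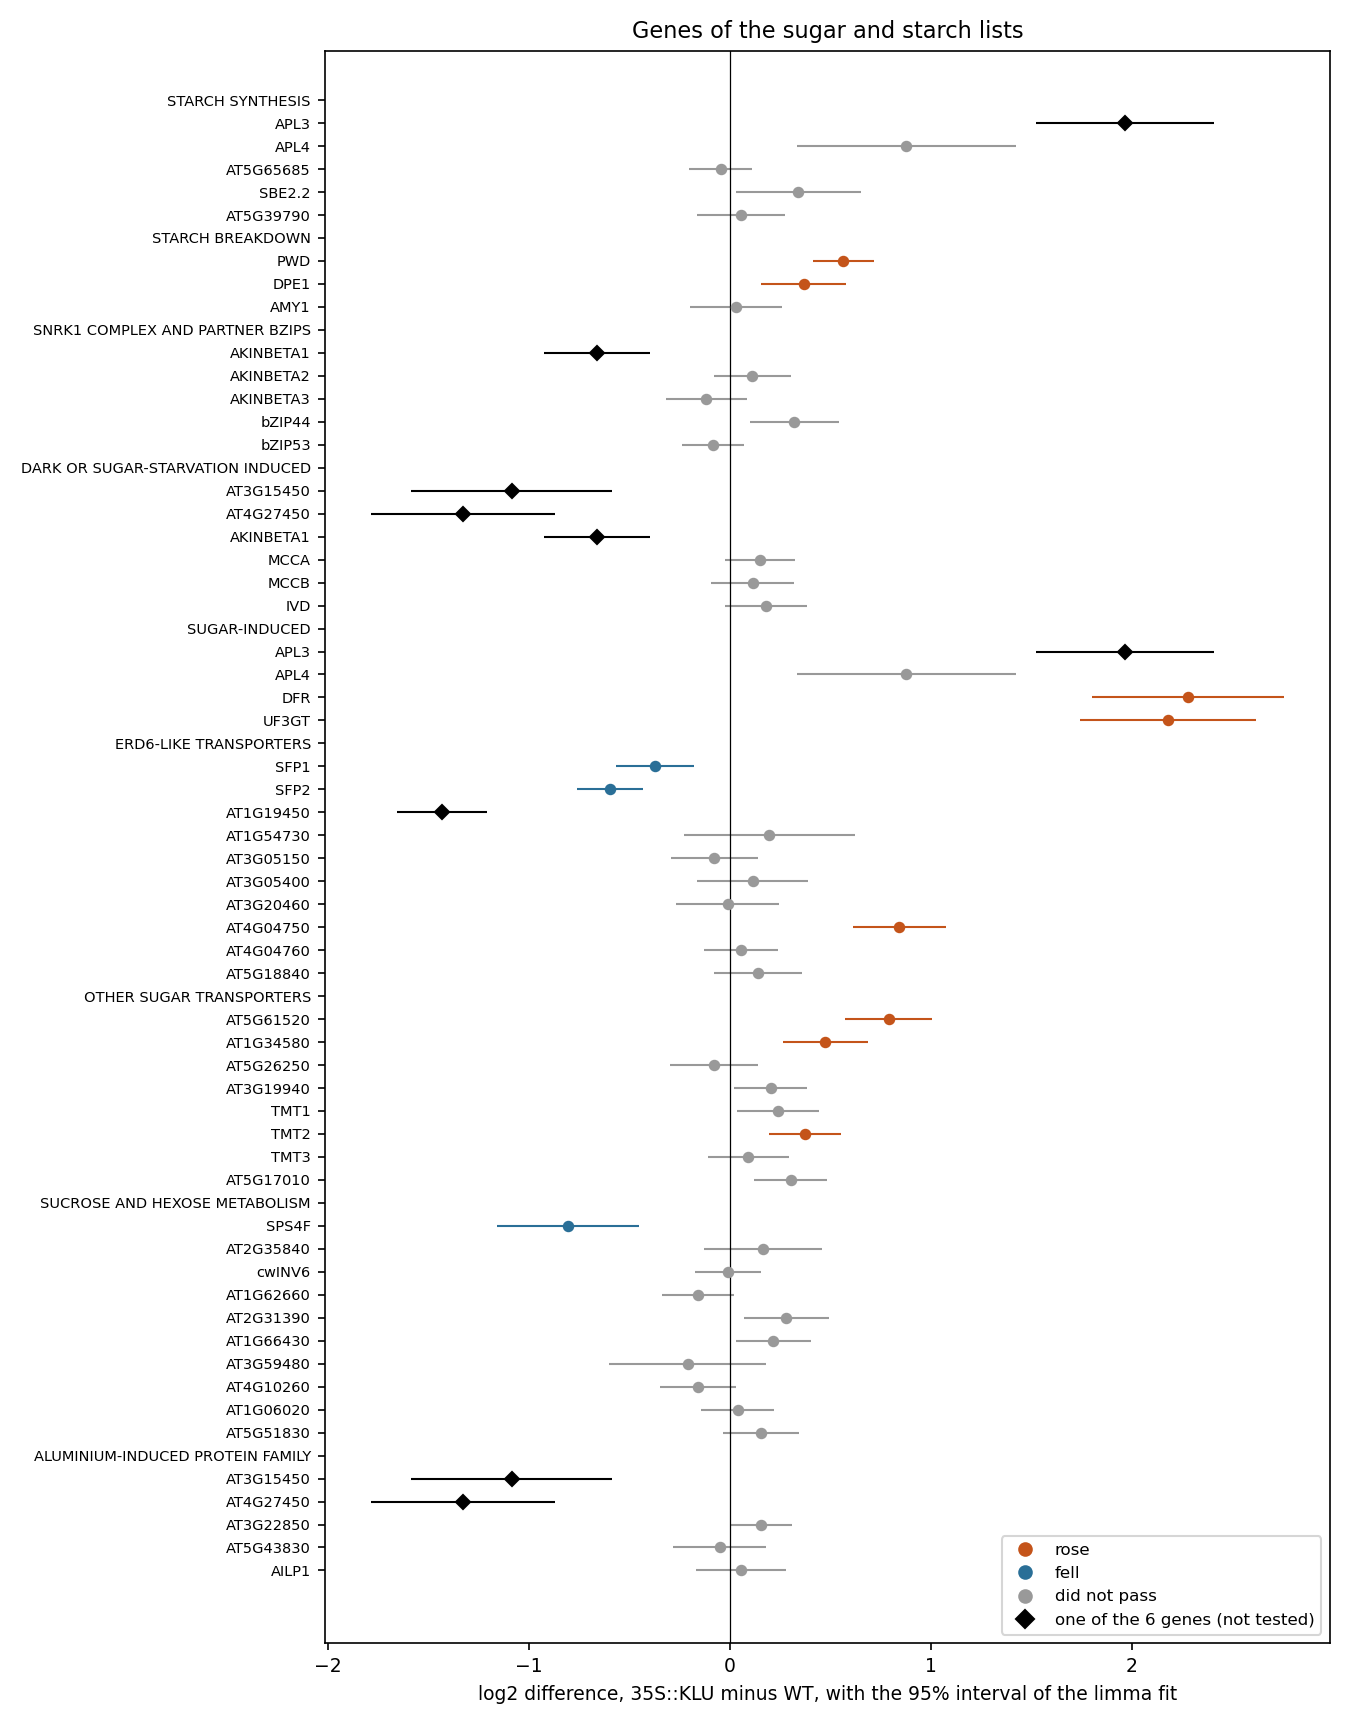
Log2 difference, 35S::KLU minus WT (x axis), with the 95% interval of the limma fit, for every measured gene of the starch and sugar lists. Black diamonds are the genes the text is about, which were not tested (AT5G19120 stood in no list), and the other genes are coloured by whether they rose, fell or did not pass at an adjusted p of 0.05. Of the 46 other genes 8 rose and 3 fell, and the genes beside AKINBETA1, AT3G15450 and AT4G27450 in their lists did not pass.

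For each of the 6 genes the 3 other genes with the closest profile were found by the root mean square difference of log2 values over the 6 arrays, each gene first set to its own mean. The measure includes the difference between the genotypes, so close genes also differ by about as much. Nearest to APL3 were PUB19, a U-box ubiquitin ligase gene, at 0.23, AT4G14090 at 0.24 and UF3GT at 0.26. The closest match of AT1G19450 was ARR15, the gene of a type-A cytokinin response regulator, at 0.08, followed by AT3G06070 and AT1G33340 at 0.12 and 0.13. AKINBETA1 lay closest to AT4G25260, AT2G47440 and AT1G23390, between 0.08 and 0.09.

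AT3G15450 and AT4G27450 had the same nearest gene, AT3G15630, at 0.11 and 0.19. AT3G15630 averaged 5.46 in 35S::KLU and 6.57 in WT, a difference of -1.10. AT4G27450 and AT5G19120 shared AT2G30600 and AT1G67865 among their closest 3. AT2G30600 stood at 0.25 from AT4G27450 and 0.14 from AT5G19120, with a mean of 7.10 in 35S::KLU and 8.65 in WT. Among the 6 genes themselves, AT3G15450 and AT4G27450 were the closest pair, at 0.18, followed by AT4G27450 and AT5G19120 at 0.25. APL3 lay 1.36 to 1.87 from the other 5. These distances include the difference between the genotypes, on which the 6 were chosen, so nothing is read from them.

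**Figure D4:**
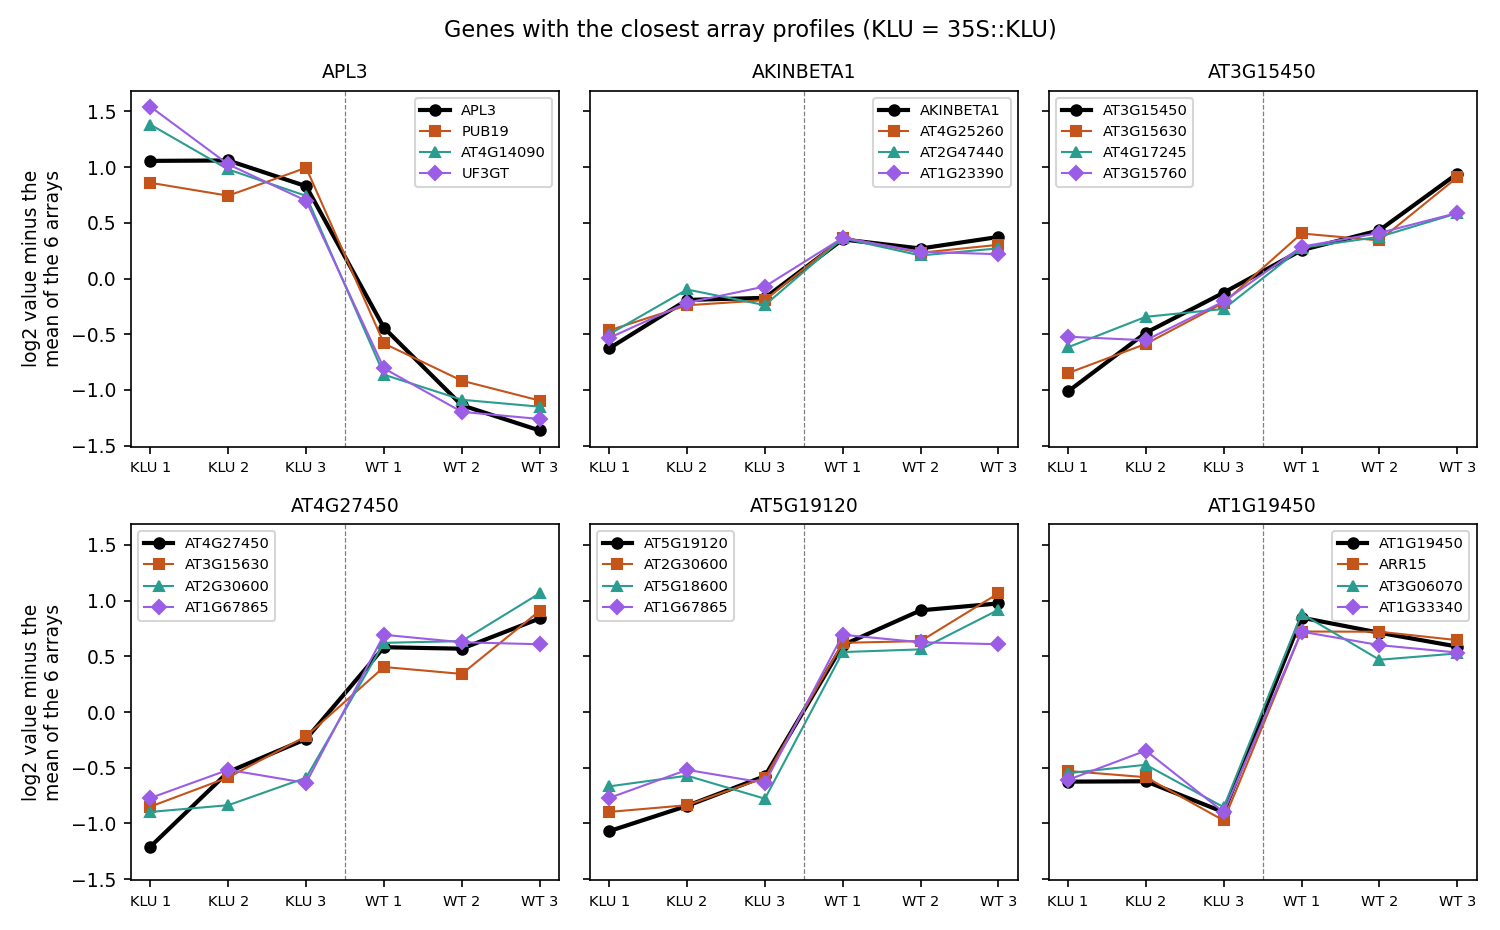
Log2 values minus the mean of the 6 arrays (y axis) for each of the 6 genes (black) and the 3 genes with the closest profile (colours), over the 3 35S::KLU arrays and the 3 WT arrays (x axis, lines only join values of 1 gene). AT3G15630 was the closest gene to both AT3G15450 and AT4G27450, and ARR15 to AT1G19450, at a root mean square difference of 0.08. With each genotype set to its own mean, these root mean square differences were 0.11, 0.16 and 0.07.

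Neighbouring genes on the chromosome were looked at as well. Of the 24 genes that lie within 2 places of a member, by the gene order of the RefSeq annotation of TAIR10.1, 15 were measured. By limma 1 rose and 0 fell, while 1 was higher and 2 lower at an unadjusted p under 0.05. These shares lie near those over all genes, where 6.85% passed by limma and 8.45% were higher and 10.7% lower at that unadjusted p, so the count is not a result about the neighbours. Differences among the 15 lay between -0.25 and 0.47. The one that rose was PORB, a protochlorophyllide oxidoreductase gene next to AT4G27450, which averaged 12.32 in 35S::KLU and 11.85 in WT (adjusted p = 0.021). AILP1 lies 2 places from AT5G19120.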

How the data were processed

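Total RNA from shoots was hybridised to single-colour ATH1 arrays, 1 array per sample, 3 per genotype. The deposited table held log2 values, made with RMA (background correction, quantile normalization and probe set summary) per the submitters' processing notes, whose version is not stated. Of 22810 probe sets, 64 controls were left out and 22746 tested with no filter. In the platform annotation 13513 had 1 gene, 503 had several and 8730 had none listed, and 13436 of the 13513 matched RefSeq genes of TAIR10.1. A gene with several probe sets was taken by the brightest, and each member had 1. RefSeq lists 1 to 3 transcripts per member, which the probe sets do not separate. Positions are not given, because the files name no build. With 3 arrays per genotype, their number sets how precise each value is.

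Differences were fitted with limma 3.58.1 (lmFit, eBayes) in R 4.3.3 on genotype, two-sided, adjusted by Benjamini-Hochberg. SEs and 95% intervals come from this fit. Tables were made with Python 3.11.15, pandas 2.3.3 and matplotlib 3.10.9, and the fit was tested on simulated data. The members and lists were chosen with earlier results of these data known. Beside the members, named genes were up to 5 passing genes per list (at least 3 by smallest unadjusted p), each list's brightest gene and the closest profiles, and neighbours were looked up after the data were seen. Other named list genes were added after their values were seen.

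The alternatives tried were median-centring, quantile and cyclic loess scaling, limma's array quality weights, a block on replicate number, each array left out in turn, trend and robust eBayes, dim probe sets filtered out, and averaging probe sets of a gene.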

Additional observations from a re-analysis of the deposited data

How the results depend on the processing

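Of the 12 alternatives run for the 6 members, 2 (the replicate block and the mean of the probe sets) cannot move their differences. Under the other 10 the members kept their direction, which their choice favours, and moved by less than 1 SD between replicates. Leaving out 1 array at a time, the difference lay between 1.77 and 2.23 for APL3, -0.74 and -0.51 for AKINBETA1, -1.29 and -0.85 for AT3G15450, -1.54 and -1.05 for AT4G27450, -1.79 and -1.54 for AT5G19120, and -1.50 and -1.34 for AT1G19450. Over all probe sets, 922 rose and 971 fell. Leaving out 1 array gave 447 to 1030 higher and 459 to 932 lower, and array quality weights gave 1433 and 1545. The other scalings gave 971 to 1085 higher and 845 to 924 lower. Among the 46 list genes besides the members, 8 rose and 3 fell, against 6 to 11 and 1 to 3 on leaving out 1 array, with 1 lower without 35S::KLU replicate 3 and 1 without WT replicate 2. Array quality weights gave 14 higher, with weights of 2.77 for WT replicate 2 and 0.53 for WT replicate 1. The other arrays had weights of 0.81 to 1.01. The cause of these shifts in the counts was not tested. Over all probe sets same-numbered samples did not deviate together (correlations of -0.20, 0.04 and -0.06), and 35S::KLU replicate 1 correlated best with WT replicate 3 (0.21). With the replicate number as a block 632 probe sets were higher and 647 lower, APL4 passed (adjusted p = 0.020) and DPE1 did not (adjusted p = 0.090). Some genes described here did share an order over the numbers in both genotypes. With the block the SE was 0.091 for AT3G15450, against 0.22 without it, and 0.083 for DFR, against 0.21. Where such an order is shared, the SE falls by construction. The block also leaves fewer degrees of freedom, so nothing is read from the smaller SEs. The SE of each of the 6 members was smaller with the block, least so for AKINBETA1 (0.112, against 0.117). For PWD (0.074, against 0.068) and DPE1 (0.100, against 0.094) the SE was larger with it.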
